A study of Homo sapiens with 18 samples.

Results

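The C-type lectin receptors and the leukocyte immunoglobulin-like receptors (LILR), with the collagen receptors LAIR1 and LAIR2, were followed through retinoic acid differentiation of leukaemia cells. The genes were taken by symbol. They covered probe sets annotated to exactly 1 gene whose symbol was LAIR1 or LAIR2, or began with CLEC, LILRA or LILRB and a digit. These families and the gene lists below were chosen with earlier results of these data known. Where a gene had several probe sets, the one with the highest mean over the 18 arrays stood for it, which touched LILRA6 alone, with 2 probe sets. This gave 40 of the 18417 genes measured: 29 CLEC, 9 LILR and 2 LAIR symbols, of which 38 are protein-coding genes. The other 2, the antisense RNA CLEC12A-AS1 and the transcribed pseudogene CLEC4GP1, entered through their symbols and are no receptors. The 40 also include 6 secreted proteins, 3 ligands of natural killer receptors and the intracellular CLEC16A. The term receptor genes is used below only as a name for all 40.

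The arrays were Affymetrix gene-level arrays of total RNA from NB4, an acute promyelocytic leukaemia cell line that carries the PML-RARA fusion and matures towards neutrophils when given all-trans retinoic acid (ATRA). The 6 groups were NB4 cells labelled TG2 knockout and wild-type NB4 cells, each untreated, after 48 h in 1 µM ATRA and after 72 h in 1 µM ATRA, with 3 arrays per group labelled as biological replicates. Whether replicates came from separate cultures is not stated, so the p-values measure the spread between these arrays. The sample codes of the knockout arrays carry the letters KD, and how the cells were made, from 1 clone or several, is not stated in the labels. The deposited values were read as log2 signal, and every change below is a difference of group means on that log2 scale, called when limma's p-value, adjusted over all 33297 probe sets, was under 0.05.

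C-type lectins carry a fold first described in calcium-dependent sugar-binding proteins, and on myeloid cells many of them recognise fungi, mycobacteria, dead cells or self glycoproteins. LILR and LAIR1 are immunoglobulin-domain receptors encoded side by side in the leukocyte receptor complex. LILRB receptors and LAIR1 hold cytoplasmic tyrosine motifs (ITIM) that recruit the phosphatases encoded by PTPN6 and PTPN11 and dampen activation, while LILRA receptors and lectins such as CLEC5A and CLEC4E borrow the ITAM motifs of the adaptors FCER1G or TYROBP, which engage the kinase SYK. In RefSeq (GRCh38.p14) 16 of the 40 genes lie on chromosome 19 and 15 on chromosome 12, where the myeloid and natural killer lectin genes form a cluster.

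TGM2, which encodes TG2 (tissue transglutaminase), was read first as a check of the labels. In the arrays labelled knockout TGM2 read 6.3, 6.51 and 6.36 in untreated cells, 11.01, 10.56 and 11.29 at 48 h and 11.61, 10.87 and 11.25 at 72 h. In wild-type arrays it read 6.4, 6.27 and 6.61 in untreated cells, 12.34, 12.06 and 12.4 at 48 h and 12.54, 12.19 and 12.39 at 72 h. The genotypes overlapped before treatment, with a knockout minus wild-type difference of -0.04 (95% interval -0.44 to 0.36, adjusted p = 1). Under ATRA they did not overlap, and the difference was -1.31 (95% interval -1.71 to -0.91, adjusted p = 0.0345) at 48 h and -1.13 (95% interval -1.53 to -0.73, adjusted p = 0.0267) at 72 h. Since ATRA also raised TGM2 by 4.85 at 72 h in the cells labelled knockout, the label is used below as a name. Whether the probe set lies inside the altered part of the gene is not stated.

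Array medians lay between 6.12 and 6.26 and the SD of the values within an array was 2.39 to 2.40 in untreated cells and 2.12 to 2.28 under ATRA. On the first principal component, which held 57.1% of the variance, untreated arrays lay between -89.9 and -84.7 and most ATRA arrays between 46.3 and 56.6. The 4 ATRA arrays that stood apart lay at 17.5 (wild-type 48 h replicate 1), 31.2 (knockout 48 h replicate 1), 31.1 (knockout 48 h replicate 3) and 30 (knockout 72 h replicate 2). The ATRA groups also varied more: the median SD over all probe sets was 0.243, 0.231, 0.226 and 0.215 in the knockout 48 h, wild-type 48 h, knockout 72 h and wild-type 72 h groups, against 0.0985 and 0.0757 in the knockout and wild-type untreated groups. Counts below are also given without the 4 arrays, except for knockout cells at 48 h, where only replicate 2 would remain.

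Sequences upstream of the transcription start were taken from RefSeq's promoter table (GRCh38.p14) for 25 of the 40 genes. The genes not matched there were CLEC10A, CLEC12A-AS1, CLEC17A, CLEC1A, CLEC2B, CLEC3A, CLEC4A, CLEC4D, CLEC4G, CLEC4GP1, CLEC7A, CLEC9A, LAIR2, LILRA3 and LILRA6. The 250 bases before the start are shown for 4 genes that were called in all 4 ATRA comparisons and whose window ends where the annotated gene begins, 2 that rose (LILRA5 and CLEC11A) and 2 that fell (CLEC5A and CLEC16A). Capitals mark matches, on either strand, to GAGGAA (the core bound by PU.1, a transcription factor of myeloid cells), AGGTCA (the half-site of retinoic acid receptors) and TTGCNNAA (a C/EBP-type core).
LILRA5 (chr19:54313167-54313416, minus strand): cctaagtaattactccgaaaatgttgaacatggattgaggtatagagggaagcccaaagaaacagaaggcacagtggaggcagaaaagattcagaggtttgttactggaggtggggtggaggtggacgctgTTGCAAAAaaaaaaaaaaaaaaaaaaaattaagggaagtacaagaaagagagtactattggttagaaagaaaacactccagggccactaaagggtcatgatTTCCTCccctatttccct
CLEC11A (chr19:50723114-50723363, plus strand): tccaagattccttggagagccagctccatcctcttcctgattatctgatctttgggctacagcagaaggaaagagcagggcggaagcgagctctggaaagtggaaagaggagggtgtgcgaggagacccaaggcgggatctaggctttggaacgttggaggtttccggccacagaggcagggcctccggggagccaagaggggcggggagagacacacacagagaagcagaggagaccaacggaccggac
CLEC5A (chr7:141946975-141947224, minus strand): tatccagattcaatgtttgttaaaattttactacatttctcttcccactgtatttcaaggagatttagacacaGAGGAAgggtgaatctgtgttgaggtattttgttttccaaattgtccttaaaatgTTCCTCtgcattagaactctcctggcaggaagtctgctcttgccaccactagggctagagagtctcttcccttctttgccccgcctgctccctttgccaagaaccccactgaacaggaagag
CLEC16A (chr16:10944314-10944563, plus strand): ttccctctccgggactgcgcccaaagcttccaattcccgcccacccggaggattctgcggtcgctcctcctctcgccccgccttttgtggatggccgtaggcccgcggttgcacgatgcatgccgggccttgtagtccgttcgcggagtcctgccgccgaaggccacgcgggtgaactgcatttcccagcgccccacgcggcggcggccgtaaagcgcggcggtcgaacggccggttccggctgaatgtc
The CLEC5A window held the PU.1 core at 2 places, beginning 177 and 122 bases before the start. LILRA5 held it 18 bases before the start and a C/EBP-type match 119 bases before it, next to a run of adenines. The CLEC11A and CLEC16A windows held none of the 3 motifs. Among the 25 genes with a window, 11 held GAGGAA, 3 held AGGTCA and 3 held TTGCNNAA, while over 27305 promoters cut to the same length the shares were 23.4%, 12.1% and 9.13%. These are matches of letters and no evidence of binding.

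ATRA moved the 40 genes in both directions, and more of them were called higher than lower. In knockout cells 15 of the 40 rose and 3 fell at 48 h, and 13 rose and 4 fell at 72 h. In wild-type cells 15 rose and 4 fell at 48 h, and 15 rose and 2 fell at 72 h. Over all 18417 genes the shares called higher were 18.3% and 18.2% in knockout cells and 16.5% and 19.6% in wild-type cells at 48 and 72 h. The shares called lower were 24.5% and 23.5% in knockout cells and 22.6% and 24.4% in wild-type cells. Single arrays moved these counts by over 1.5 times. At 48 h in knockout cells 6 receptor genes rose without untreated replicate 1 (12% of all genes) and 7 without 48 h replicate 2 (13.6%). In wild-type cells at that time 9 rose without untreated replicate 1 (11.4% of all genes), without untreated replicate 3 (11.2%) or without 48 h replicate 2 (12.5%), and 8 without 48 h replicate 3 (11.9%). At 72 h 8 rose in knockout cells without untreated replicate 1 (12.3%). The falls in knockout cells at 72 h came to 2 without untreated replicate 2 (19.9% of all genes), untreated replicate 3 (20.9%) or 72 h replicate 2 (23.5%), and those in wild-type cells to 4 without 72 h replicate 1 (22.4%). After quantile normalization 10 receptor genes rose and 4 fell in knockout cells at 48 h, beside 15.5% and 18.8% of all genes. Under the same setting 11 rose and 4 fell in wild-type cells at 72 h, beside 18.5% and 18.7%. The median change of the 40 genes was 0.36 and 0.33 in knockout cells and 0.34 and 0.4 in wild-type cells at 48 and 72 h, beside 0.08 and 0.07 in knockout cells and 0.06 and 0.08 in wild-type cells for all genes. Quantile normalization gave the 40 genes medians of 0.24 and 0.24 in knockout cells and 0.32 and 0.32 in wild-type cells. In bulk RNA a change in the number of cells expressing a gene and a change in RNA per cell cannot be told apart. The same untreated arrays serve both times within a genotype.

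Over all genes, the changes under ATRA differed with the level at which a gene was measured. Of the 40 genes, 21 belonged to the 6140 dimmest genes, 15 to the 6138 of middle level and 4 to the 6139 brightest. Dim genes as a whole tended upward under ATRA: in wild-type cells at 72 h 22% of the dimmest were called higher and 3.89% lower, with a median of 0.25, against 16.2% higher and 47% lower with a median of -0.35 among the brightest. Among the 21 dim receptor genes 7 were called higher and 1 lower at that point (median 0.37). In the other comparisons the dim receptor genes called higher were 5 of 21 in knockout cells at 48 h, 5 of 21 in knockout cells at 72 h and 4 of 21 in wild-type cells at 48 h. The shares of all dim genes called higher there were 19.7%, 23.9% and 16.2%. Among the 15 of middle level 5 rose in wild-type cells at 72 h and 0 fell, against 20.7% and 22.2% of all genes of that level. Elsewhere 7 of the 15 rose in knockout cells at 48 h, 5 in knockout cells at 72 h and 8 in wild-type cells at 48 h. The shares of all middle genes called higher there were 21.6%, 16.7% and 17.5%. In these comparisons 0 of the 15 fell, against 22.6%, 22.5% and 20.6%. Of the 4 bright ones, LAIR1, CLEC11A and CLEC4GP1 rose and CLEC16A fell. The files hold no detection call, so whether a dim probe set stood above background is unknown, and how much of the rises of dim genes follows this general tendency was not tested.

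**Figure D1:**
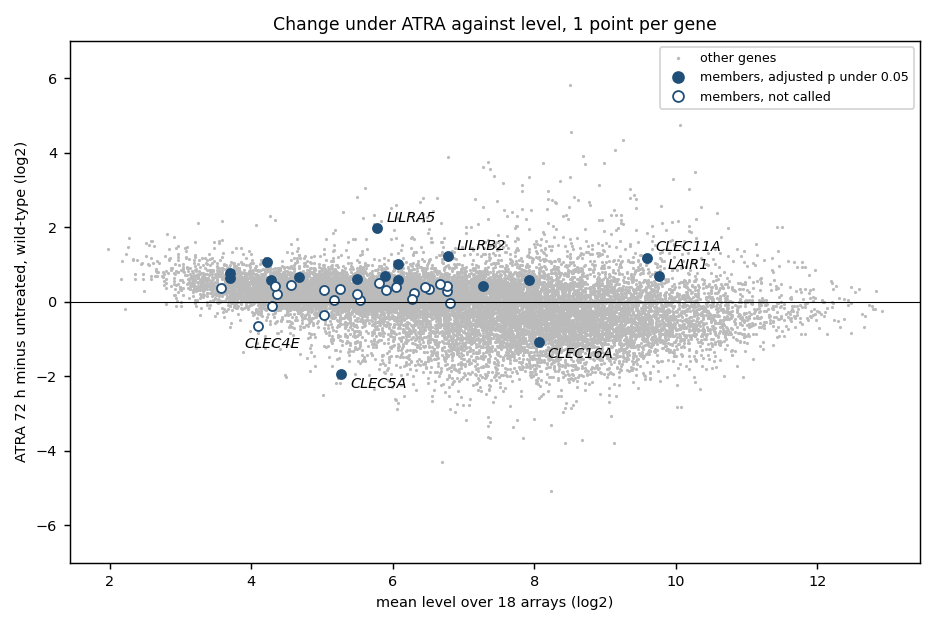
Change at 72 h of ATRA in wild-type cells (log2, vertical) against the mean level over the 18 arrays (log2, horizontal), 1 point per gene. The 40 receptor genes are blue, filled where adjusted p was under 0.05, and the other genes grey. LILRA5 and CLEC5A sit at 1.98 and -1.93, near the edge of the cloud at their level, while most other members lie inside it.

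A set of 9 genes was called in all 4 ATRA comparisons: LILRA5, LILRB2, LAIR1, CLEC11A, CLEC2B, CLEC12A-AS1 and CLEC4GP1 rose, and CLEC5A and CLEC16A fell. Another 20 genes were called in 1 to 3 of the comparisons, and 11 in none. The plot of single arrays shows the 9 genes in every group.

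**Figure D2:**
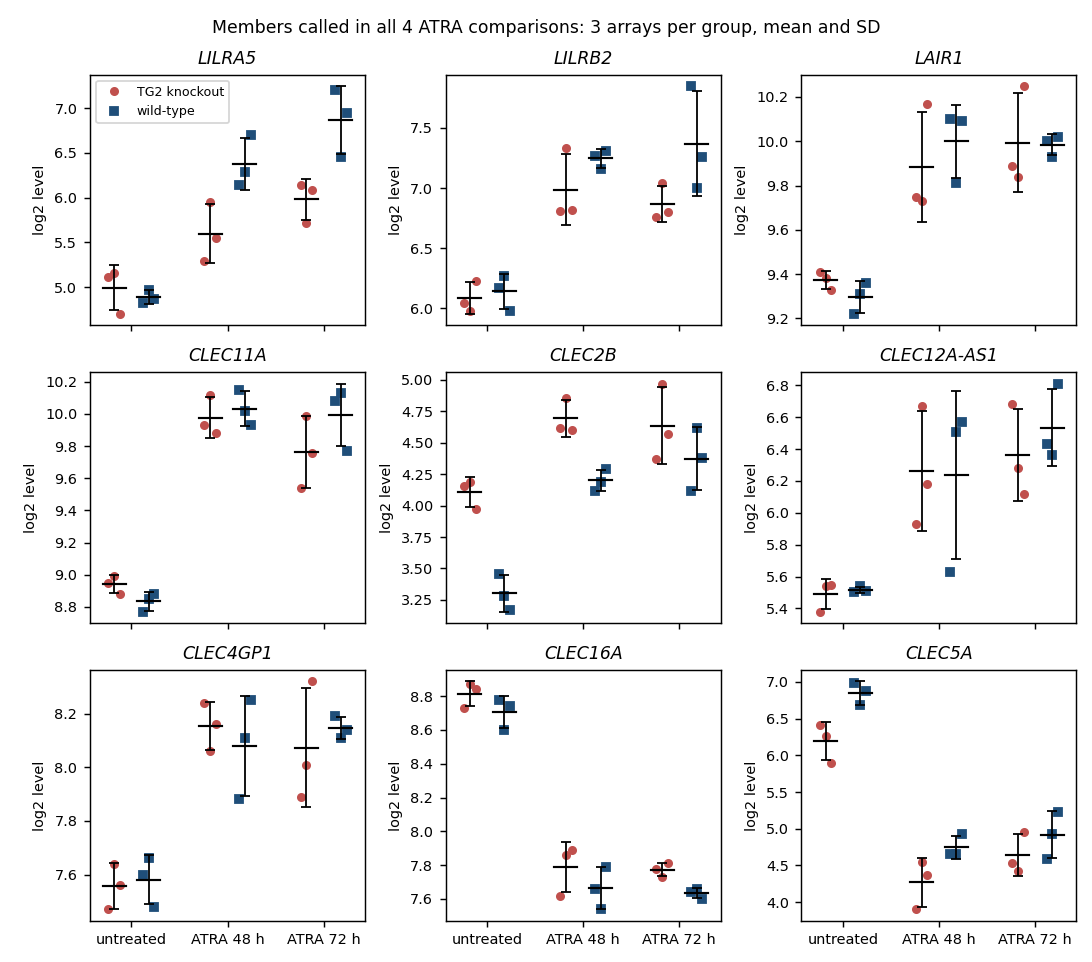
Log2 level on every array (points: red circles TG2 knockout, blue squares wild-type) by time in ATRA, with group means (black bars) and SD (n = 3), for the 9 genes called in all 4 ATRA comparisons. For LILRA5 and CLEC2B the genotypes stand furthest apart, LILRA5 at 72 h (means 5.98 in knockout and 6.87 in wild-type cells) and CLEC2B before treatment (4.11 and 3.3).

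Among the 8 inhibitory receptors with ITIM, 4 rose in knockout cells at 48 h and 2 at 72 h. In wild-type cells 4 rose at each time, and none fell in either genotype. Over all genes 18.3% and 18.2% were called higher in knockout cells and 16.5% and 19.6% in wild-type cells at 48 and 72 h. Shares called lower lay between 22.6% and 24.5%. The counts of every class below stand beside these shares, and no class was tested against them. LILRB2, which binds HLA class I and angiopoietin-like proteins, read 6.04, 5.98 and 6.23 in untreated cells, 6.81, 7.33 and 6.82 at 48 h and 6.76, 7.04 and 6.8 at 72 h in knockout cells. In wild-type cells LILRB2 read 6.17, 6.27 and 5.98 in untreated cells, 7.27, 7.16 and 7.31 at 48 h and 7.85, 7 and 7.26 at 72 h. Every ATRA array lay above every untreated array in both genotypes. The LILRB2 rise was 0.9 (SE 0.19, adjusted p = 0.00131) and 0.78 (SE 0.19, adjusted p = 0.00369) in knockout cells at 48 and 72 h. In wild-type cells it was 1.11 (SE 0.19, adjusted p = 0.000243) and 1.23 (SE 0.19, adjusted p = 8.04e-05). LAIR1, the inhibitory receptor for collagens, was 9.41, 9.38 and 9.33 in untreated cells, 9.75, 9.73 and 10.17 at 48 h and 9.89, 9.84 and 10.25 at 72 h in knockout cells. Its wild-type values were 9.22, 9.31 and 9.36 in untreated cells, 10.1, 9.81 and 10.09 at 48 h and 10, 9.93 and 10.02 at 72 h. The groups did not overlap. LAIR1 was higher under ATRA by 0.51 (SE 0.13, adjusted p = 0.00523) and 0.62 (SE 0.13, adjusted p = 0.0013) in knockout cells at 48 and 72 h. Wild-type cells had rises of 0.7 (SE 0.13, adjusted p = 0.000466) and 0.69 (SE 0.13, adjusted p = 0.000498). The knockout 48 h call of LAIR1 was kept in 15 of 16 alternatives. The other left out the 4 arrays that stood apart, which keeps 1 knockout array at 48 h, too few to read a call.

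CLEC4A (DCIR), a lectin of myeloid and dendritic cells with an ITIM of its own, gave 4.26, 4.34 and 4.28 in untreated cells, 4.58, 4.34 and 4.65 at 48 h and 5.17, 4.4 and 4.32 at 72 h in knockout cells. Wild-type cells gave 4.36, 4.65 and 4.33 in untreated cells, 4.71, 4.95 and 5.39 at 48 h and 5.42, 4.85 and 5.04 at 72 h. Only the wild-type rise at 72 h, 0.66 (SE 0.22, adjusted p = 0.0259), was called, and that call ended under quantile normalization and without untreated replicate 1 or 3 or 72 h replicate 1 (adjusted p up to 0.11). At 48 h the wild-type arrays were also all above the untreated ones, with a change of 0.57 (SE 0.22, adjusted p = 0.054), while the knockout change at 72 h was 0.34 with overlapping groups.

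The other inhibitory receptors were called in 2 comparisons or fewer. LILRB3, an inhibitory receptor of myeloid cells, rose in wild-type cells by 0.56 (SE 0.18, adjusted p = 0.0183) at 48 h and 0.58 (SE 0.18, adjusted p = 0.0143) at 72 h. Its knockout changes of 0.39 and 0.32 were not called. LILRB1, another HLA class I receptor, was called in knockout cells at 48 h only (0.64 (SE 0.18, adjusted p = 0.011)), with means of 6.7 against 6.06 untreated, and its wild-type change at that time was 0.15. LILRB5 passed in wild-type cells at 48 h only (0.45 (SE 0.17, adjusted p = 0.0455)). CLEC12B passed in knockout cells at 48 h only (0.54 (SE 0.18, adjusted p = 0.0241)), at a mean level of 3.78. CLEC12A, an inhibitory lectin used as a surface marker of myeloid leukaemia, was called in no comparison and its 6 group means lay between 4.12 and 4.4. Single arrays or settings ended several of these calls. LILRB3 lost its call at 48 h without untreated replicate 2 or 3 or 48 h replicate 2 or 3 (adjusted p up to 0.0835) and at 72 h without untreated replicate 2 or 72 h replicate 1 (adjusted p up to 0.0546). LILRB5 lost it under quantile normalization, median centring and a replicate block and without untreated replicate 1, 2 or 3 or 48 h replicate 2 or 3 (adjusted p up to 0.196). CLEC12B lost it under quantile normalization and median centring and without untreated replicate 1 or 3 or 48 h replicate 1 or 3. The fit without the 4 arrays that stood apart keeps 1 knockout array at 48 h and is not read for CLEC12B.

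Of the 4 activating LILR receptors, 1 rose in knockout cells at each time, and 3 at 48 h and 2 at 72 h rose in wild-type cells. LILRA5, an activating receptor of monocytes and neutrophils that signals through FCER1G, had the largest rise of the 40 genes in wild-type cells at both times. In knockout cells LILRA5 read 5.11, 5.16 and 4.7 in untreated cells, 5.29, 5.95 and 5.55 at 48 h and 6.14, 5.72 and 6.08 at 72 h. In wild-type cells it read 4.82, 4.97 and 4.87 in untreated cells, 6.14, 6.29 and 6.7 at 48 h and 7.2, 6.45 and 6.95 at 72 h. All ATRA arrays lay above all untreated arrays in each genotype, and at each time every knockout ATRA array lay below every wild-type ATRA array. The rise was 0.61 (SE 0.21, adjusted p = 0.0328) and 0.99 (SE 0.21, adjusted p = 0.00173) in knockout cells at 48 and 72 h, folds of 1.52 and 1.99. It was 1.49 (SE 0.21, adjusted p = 4.91e-05) and 1.98 (SE 0.21, adjusted p = 2.52e-06) in wild-type cells, folds of 2.81 and 3.94. The knockout call at 48 h ended under quantile normalization, median centring and a fit of the compared groups alone and without untreated replicate 1 or 3 or 48 h replicate 2 or 3 (adjusted p up to 0.154), and the other three held under each alternative run.

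LILRA6, a close copy of LILRB3 in its outer domains, had 5.48, 5.57 and 5.62 in untreated cells, 5.72, 6.03 and 5.67 at 48 h and 5.92, 6.31 and 5.8 at 72 h in knockout cells. Wild-type LILRA6 values were 5.63, 5.59 and 5.35 in untreated cells, 6.27, 6.29 and 6.12 at 48 h and 5.78, 6.42 and 6.47 at 72 h. Its wild-type rises of 0.7 (SE 0.18, adjusted p = 0.00557) and 0.7 (SE 0.18, adjusted p = 0.00501) were called. The knockout changes of 0.25 (SE 0.18, adjusted p = 0.274) and 0.45 (SE 0.18, adjusted p = 0.0524) were not. LILRA2 was called in wild-type cells at 48 h (0.6 (SE 0.23, adjusted p = 0.0472)), where its mean was 7.16 against 6.57 untreated, while the knockout mean at 48 h was 6.51 against 6.59. That call ended under quantile normalization, median centring, moderation without a trend and omission of the 4 arrays that stood apart and without untreated replicate 1, 2 or 3 or 48 h replicate 1 or 3 (adjusted p up to 0.157). LILRA1 passed nowhere, with a largest change of 0.47 (SE 0.27, adjusted p = 0.164) in wild-type cells at 72 h and arrays there that spanned 6.21 to 7.57. LILR genes are near-identical in places, above all LILRB3 and LILRA6, so a probe set can take up RNA of a neighbour, and which copy a signal came from cannot be told apart here. LILRB4 and LILRA4 were not analysed here.

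The 8 activating C-type lectins split. In knockout cells 2 rose and 2 fell at 48 h and 2 rose and 3 fell at 72 h; in wild-type cells 1 rose and 3 fell at 48 h and 3 rose and 1 fell at 72 h. CLEC5A (MDL-1), a TYROBP-coupled receptor of monocytes and neutrophils, had the largest fall of the 40 genes in all 4 comparisons. Knockout cells read 6.41, 6.27 and 5.9 in untreated cells, 3.9, 4.54 and 4.37 at 48 h and 4.53, 4.42 and 4.96 at 72 h. Wild-type cells read 6.99, 6.68 and 6.88 in untreated cells, 4.65, 4.66 and 4.93 at 48 h and 4.59, 4.93 and 5.23 at 72 h. No ATRA array reached the untreated range of its genotype. CLEC5A fell by 1.92 (SE 0.21, adjusted p = 3.01e-06) and 1.56 (SE 0.21, adjusted p = 2.47e-05) in knockout cells at 48 and 72 h, 3.79-fold and 2.94-fold lower. It fell by 2.1 (SE 0.21, adjusted p = 1.14e-06) and 1.93 (SE 0.21, adjusted p = 2.2e-06) in wild-type cells, 4.3-fold and 3.82-fold lower.

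CLEC4E (Mincle), a receptor for mycobacterial glycolipids and for the nuclear protein SAP130, read 4.71, 4.93 and 4.91 in untreated cells, 3.2, 3.73 and 3.65 at 48 h and 4.01, 3.83 and 4.37 at 72 h in knockout cells. Wild-type CLEC4E values were 4.62, 4.54 and 4.64 in untreated cells, 3.56, 3.19 and 4.12 at 48 h and 4.39, 3.31 and 4.16 at 72 h. ATRA arrays were below all untreated arrays of the same genotype. CLEC4E changed by -1.32 (SE 0.27, adjusted p = 0.001) and -0.78 (SE 0.27, adjusted p = 0.0281) in knockout cells at 48 and 72 h. Its wild-type difference was -0.98 (SE 0.27, adjusted p = 0.0089) at 48 h, which was called, and -0.65 (SE 0.27, adjusted p = 0.0606) at 72 h, which was not. The knockout 72 h call ended under omission of the 4 arrays that stood apart and without untreated replicate 2 or 3 or 72 h replicate 1 or 2 (adjusted p up to 0.102). The wild-type 48 h call ended without 48 h replicate 2 (adjusted p up to 0.0521). CLEC4D, which lies beside CLEC4E and pairs with it, was at 5.56, 5.42 and 5.44 in untreated cells, 5.29, 4.93 and 5.15 at 48 h and 5.24, 5.04 and 4.84 at 72 h in knockout cells. Wild-type cells had CLEC4D at 5.15, 5.19 and 5.3 in untreated cells, 4.37, 4.21 and 4.57 at 48 h and 5.02, 4.94 and 4.62 at 72 h. It was called lower in wild-type cells at 48 h (-0.83 (SE 0.15, adjusted p = 0.000406)) and in knockout cells at 72 h (-0.43 (SE 0.15, adjusted p = 0.0296)). The knockout call ended under omission of the 4 arrays that stood apart and without untreated replicate 1, 2 or 3 or 72 h replicate 2 or 3 (adjusted p up to 0.12).

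CLEC6A (dectin-2), a receptor for fungal mannans, rose at 72 h in knockout cells, where its neighbours CLEC4D and CLEC4E fell. CLEC6A read 4.24, 4.21 and 4.42 in untreated cells, 4.11, 5.04 and 4.71 at 48 h and 5.06, 4.87 and 5.15 at 72 h in knockout cells. In wild-type cells the values were 4.37, 4.32 and 4.07 in untreated cells, 4.52, 4.4 and 4.54 at 48 h and 4.86, 4.65 and 4.57 at 72 h. The knockout rise at 72 h, 0.74 (SE 0.19, adjusted p = 0.00571), was called and held under each alternative run. The wild-type change of 0.44 (SE 0.19, adjusted p = 0.0709) was not called. CLEC4C (BDCA-2), known as a surface marker of plasmacytoid dendritic cells, gave 4.77, 5.38 and 5.03 in untreated cells, 5.68, 5.97 and 5.46 at 48 h and 5.86, 5.47 and 5.9 at 72 h in knockout cells. Wild-type cells gave 5.43, 5.13 and 5.06 in untreated cells, 5.47, 5.82 and 5.22 at 48 h and 5.98, 5.8 and 5.65 at 72 h for CLEC4C. It rose in knockout cells by 0.64 (SE 0.2, adjusted p = 0.0163) and 0.68 (SE 0.2, adjusted p = 0.0114) and in wild-type cells at 72 h by 0.6 (SE 0.2, adjusted p = 0.0213). The knockout call of CLEC4C at 48 h ended under array weights and without untreated replicate 1 or 48 h replicate 2 (adjusted p up to 0.0877), and that at 72 h ended without untreated replicate 1 (adjusted p up to 0.0656). The wild-type call ended without untreated replicate 2 or 3 or 72 h replicate 1 (adjusted p up to 0.0815).

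CLEC7A (dectin-1), the receptor for fungal beta-glucans, lay among the dimmest genes, with means of 3.36 and 3.41 in untreated knockout and wild-type cells. It was called higher in wild-type cells at 48 h (0.51 (SE 0.16, adjusted p = 0.0188)) and 72 h (0.64 (SE 0.16, adjusted p = 0.00415)), and the knockout changes were 0.4 and 0.35 without a call. The CLEC7A call at 48 h ended under quantile normalization and a fit of the compared groups alone and without untreated replicate 1 or 48 h replicate 2 or 3 (adjusted p up to 0.185). That at 72 h ended under quantile normalization (adjusted p up to 0.0943). CLEC1B (CLEC-2), the podoplanin receptor of platelets, was called higher in knockout cells at 48 h (0.58 (SE 0.21, adjusted p = 0.0385)) and in wild-type cells at 72 h (0.57 (SE 0.21, adjusted p = 0.0386)). The knockout call ended under quantile normalization, median centring, array weights, a replicate block and a fit of the compared groups alone and without untreated replicate 1 or 2 or 48 h replicate 2 (adjusted p up to 0.215). The wild-type call ended under quantile normalization and a replicate block and without untreated replicate 2 or 3 or 72 h replicate 2 or 3 (adjusted p up to 0.212). CLEC9A, which binds actin filaments of dead cells, passed nowhere, with changes of 0.47 and 0.25 in knockout cells and 0.29 and 0.41 in wild-type cells at 48 and 72 h.

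Of the 6 secreted proteins, 2 rose in knockout cells at 48 h and 3 at 72 h, and 1 and 2 rose in wild-type cells. CLEC11A, a growth factor for haematopoietic progenitors and bone, read 8.95, 8.99 and 8.88 in untreated cells, 9.93, 10.12 and 9.88 at 48 h and 9.54, 9.99 and 9.76 at 72 h in knockout cells. Wild-type CLEC11A values were 8.77, 8.85 and 8.88 in untreated cells, 10.15, 10.02 and 9.93 at 48 h and 10.08, 10.13 and 9.77 at 72 h. The untreated and ATRA arrays were separated by a gap in both genotypes. CLEC11A rose by 1.04 (SE 0.12, adjusted p = 7.39e-06) and 0.82 (SE 0.12, adjusted p = 7.04e-05) in knockout cells. Its wild-type rises were 1.2 (SE 0.12, adjusted p = 1.58e-06) and 1.16 (SE 0.12, adjusted p = 1.85e-06). It was one of the bright genes, a class of which 16.2% rose and 47% fell in wild-type cells at 72 h. CLEC3B (tetranectin), a plasminogen-binding plasma protein, rose by 0.42 and 0.34 in knockout cells and by 0.43 in wild-type cells at 72 h, with adjusted p of 0.0198, 0.048 and 0.015. The CLEC3B call in knockout cells at 48 h ended without untreated replicate 1 or 2 or 48 h replicate 1. The fit without the 4 arrays that stood apart keeps 1 knockout array at 48 h and is not read there. At 72 h the knockout call ended under median centring and without untreated replicate 1, 2 or 3 or 72 h replicate 1, 2 or 3 (adjusted p up to 0.14). The wild-type call ended without untreated replicate 3 or 72 h replicate 3 (adjusted p up to 0.0767). CLEC19A was called in knockout cells at 72 h alone (0.43 (SE 0.15, adjusted p = 0.0296)). That call ended under quantile normalization and a fit of the compared groups alone and without untreated replicate 1 or 2 or 72 h replicate 1 or 3 (adjusted p up to 0.132). LAIR2, the soluble decoy that competes with LAIR1 for collagen, stayed within 6.74 to 6.97 over the 6 group means. The soluble LILRA3 and the cartilage protein CLEC3A were not called either, with largest changes of 0.54 (SE 0.3, adjusted p = 0.167) and 0.35 (SE 0.22, adjusted p = 0.207), both in wild-type cells, LILRA3 at 48 h and CLEC3A at 72 h.

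The CLEC2 lectins are ligands of natural killer cell receptors. CLEC2B (AICL), the ligand of NKp80, read 4.16, 4.19 and 3.97 in untreated cells, 4.62, 4.86 and 4.6 at 48 h and 4.37, 4.97 and 4.57 at 72 h in knockout cells. In wild-type cells CLEC2B read 3.46, 3.28 and 3.17 in untreated cells, 4.12, 4.19 and 4.29 at 48 h and 4.12, 4.62 and 4.38 at 72 h. It rose by 0.59 (SE 0.17, adjusted p = 0.0131) and 0.53 (SE 0.17, adjusted p = 0.0221) in knockout cells. It rose by 0.9 (SE 0.17, adjusted p = 0.000698) and 1.07 (SE 0.17, adjusted p = 0.000129) in wild-type cells. Before treatment the knockout arrays lay above the wild-type ones with no overlap. The knockout call of CLEC2B at 48 h ended under quantile normalization and without untreated replicate 3 or 48 h replicate 2 (adjusted p up to 0.133). Its 72 h call ended under quantile normalization, omission of the 4 arrays that stood apart and a fit of the compared groups alone and without untreated replicate 3 or 72 h replicate 2 (adjusted p up to 0.302). CLEC2A (KACL), the ligand of NKp65 in skin, had 3.51, 3.21 and 3.34 in untreated cells, 3.69, 3.56 and 3.59 at 48 h and 3.72, 4.18 and 3.41 at 72 h in knockout cells. Wild-type CLEC2A was 3.31, 3.5 and 3.23 in untreated cells, 3.6, 4.22 and 4.15 at 48 h and 4.26, 4.26 and 3.8 at 72 h. Its wild-type rises of 0.64 (SE 0.21, adjusted p = 0.0263) and 0.76 (SE 0.21, adjusted p = 0.00943) were called. The 48 h call ended under quantile normalization and without untreated replicate 1 or 3 or 48 h replicate 2 or 3 (adjusted p up to 0.178), and the 72 h call under quantile normalization (adjusted p up to 0.115). Knockout changes of 0.26 and 0.42 were not called. CLEC2D (LLT1), the ligand of CD161, was called in no comparison, with changes between -0.16 and 0.31.

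Among the 8 endocytic, adhesion and endothelial lectins, 3 rose at 48 h and 2 at 72 h in knockout cells, 2 rose at 48 h and 0 at 72 h in wild-type cells, and none fell. CLEC14A, an endothelial adhesion protein, read 5.52, 5.6 and 5.66 in untreated cells, 6.06, 6.73 and 5.94 at 48 h and 5.82, 5.53 and 6.4 at 72 h in knockout cells. Wild-type arrays gave 5.47, 5.69 and 5.61 in untreated cells, 5.97, 6.25 and 6.2 at 48 h and 5.45, 5.84 and 6.37 at 72 h for CLEC14A. The call rested on knockout cells at 48 h (0.65 (SE 0.24, adjusted p = 0.0433)), where replicate 2 was the highest array. It ended under quantile normalization and median centring and without untreated replicate 1, 2 or 3 or 48 h replicate 2 (adjusted p up to 0.215). CLEC4F, a Kupffer cell lectin in the mouse, rose by 0.51 at 48 h and 0.43 at 72 h in knockout cells and by 0.49 at 48 h in wild-type cells. The knockout call of CLEC4F ended without untreated replicate 1 or 48 h replicate 1 or 2 (adjusted p up to 0.062) at 48 h. Its 72 h counterpart ended under quantile normalization and a fit of the compared groups alone and without untreated replicate 1, 2 or 3 or 72 h replicate 1 or 3 (adjusted p up to 0.168). The wild-type call of CLEC4F ended without untreated replicate 1 or 3 or 48 h replicate 2 or 3 (adjusted p up to 0.104). CLEC4G, a lectin of liver sinusoidal endothelium, rose at 48 h by 0.52 in knockout and 0.63 in wild-type cells. The CLEC4G call in wild-type cells held under every alternative run. That in knockout cells ended under a fit of the compared groups alone and without untreated replicate 1 or 2 or 48 h replicate 2 (adjusted p up to 0.138). CLEC20A was called at 72 h in knockout cells (0.35 (SE 0.13, adjusted p = 0.0403)). This ended under median centring and without untreated replicate 1, 2 or 3 or 72 h replicate 1 or 3 (adjusted p up to 0.131). CLEC1A, CLEC4M, CLEC10A and CLEC17A were called nowhere, and CLEC17A, a lectin of B cells, kept its 6 means between 6.01 and 6.39.

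CLEC16A, an intracellular protein of endosomes and mitochondrial turnover despite its lectin name, was the other gene that fell throughout. Its knockout values were 8.73, 8.87 and 8.84 in untreated cells, 7.62, 7.86 and 7.89 at 48 h and 7.78, 7.73 and 7.81 at 72 h. Its wild-type values were 8.78, 8.6 and 8.74 in untreated cells, 7.66, 7.54 and 7.79 at 48 h and 7.64, 7.66 and 7.6 at 72 h. The ATRA arrays lay in a narrow band below every untreated array. CLEC16A changed by -1.02 (SE 0.1, adjusted p = 1.63e-06) and -1.04 (SE 0.1, adjusted p = 1.42e-06) in knockout cells. The wild-type change was -1.04 (SE 0.1, adjusted p = 1.22e-06) and -1.07 (SE 0.1, adjusted p = 7.68e-07). CLEC12A-AS1 read 5.38, 5.54 and 5.55 in untreated cells, 5.93, 6.67 and 6.18 at 48 h and 6.68, 6.28 and 6.12 at 72 h in knockout cells. Wild-type CLEC12A-AS1 values were 5.5, 5.54 and 5.51 in untreated cells, 5.63, 6.51 and 6.57 at 48 h and 6.43, 6.36 and 6.81 at 72 h, with replicate 1 at 48 h the lowest ATRA array. Its rise was 0.77 (SE 0.23, adjusted p = 0.0154) and 0.87 (SE 0.23, adjusted p = 0.00744) in knockout cells. In wild-type cells the rise was 0.72 (SE 0.23, adjusted p = 0.023) and 1.02 (SE 0.23, adjusted p = 0.00239). CLEC12A, on the opposite strand and overlapping it, was called in no comparison. That each probe set reads 1 strand alone is not stated in the labels. The knockout call at 48 h ended without untreated replicate 1 or 48 h replicate 2 (adjusted p up to 0.0846). In wild-type cells it ended without untreated replicate 1, 2 or 3 or 48 h replicate 2 or 3 (adjusted p up to 0.108). The pseudogene CLEC4GP1 rose by 0.6 and 0.52 in knockout cells and 0.5 and 0.57 in wild-type cells. It is a copy of CLEC4G, and which of them a signal came from cannot be told apart.

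The 2 genotypes were compared with their own untreated arrays, so their calls can be set side by side. At 48 h 9 genes were called higher in both, which is 9 of the 15 in knockout cells and 9 of the 15 in wild-type cells, and 3 were called lower in both, of 3 and 4. At 72 h 9 genes rose in both, of 13 in knockout cells and 15 in wild-type cells, and CLEC5A and CLEC16A fell in both, of 4 and 2. Over all 18417 genes, those called higher in both genotypes at 48 h were 62.7% of the genes called in knockout cells and 69.6% of those called in wild-type cells, and at 72 h 69.8% and 64.7%. For genes called lower the shares were 84.4% and 91.3% at 48 h and 87.8% and 84.5% at 72 h. Genes called in 1 genotype alone do not show a difference between genotypes, which was tested directly below.

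**Figure D3:**
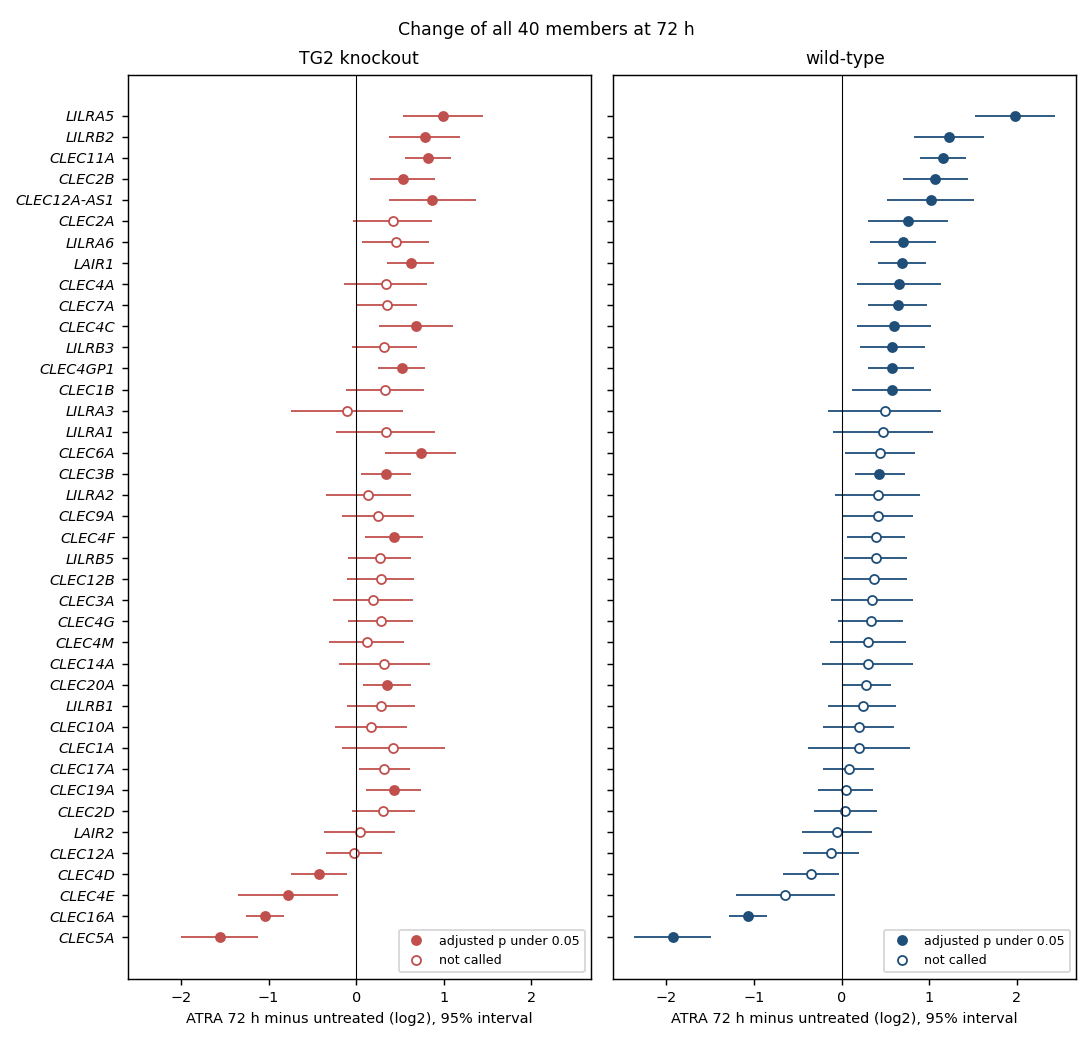
Change at 72 h of ATRA against untreated cells (log2, horizontal) with its 95% interval for all 40 genes, TG2 knockout left and wild-type right, ordered by the wild-type change. Filled points had adjusted p under 0.05. LILRA5 stands at 0.99 in knockout and 1.98 in wild-type cells, and CLEC5A at -1.56 and -1.93.

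Between knockout and wild-type cells no receptor gene was called by limma at any time. Over all genes 0.0109% were called in untreated cells, 0.0271% at 48 h and 0.0977% at 72 h. At an unadjusted p under 0.05 the counts were 2, 8 and 2 of the 40 genes, beside 188, 1093 and 2114 of 18417. The 9 LILR genes had a median difference of 0.03 before treatment, -0.29 at 48 h and -0.24 at 72 h, with 6, 2 and 0 of the 9 higher in knockout cells. The 29 CLEC genes had medians of -0.02, 0.02 and -0.04, with 13, 17 and 13 of the 29 higher. Of the lists read further below, the 12 other immunoglobulin-like receptors had -0.02, -0.25 and -0.3, with 6, 5 and 3 higher. The 17 signalling partners had 0, -0.18 and -0.18, with 9, 2 and 3 higher. A lower median under ATRA was thus not particular to the LILR genes. Medians for all genes were 0 at each time. Leaving out the 4 arrays that stood apart, 3 of which are knockout arrays, keeps 1 knockout array at 48 h, replicate 2. Each 48 h value without the 4 arrays below therefore compares that single array and gives no group median. The LILR median was then -0.06 at 48 h and -0.22 at 72 h, with 4 and 1 of the 9 LILR genes higher in knockout cells. Neutrophil maturation genes moved beside them, with medians of -0.55 at 48 h and -0.27 at 72 h and 0 of 8 higher in knockout cells at either time. Without the 4 arrays those medians were -0.75 and -0.22, with 0 and 2 of 8 higher. Monocyte and macrophage genes had medians of -0.08 and -0.19, with 2 and 1 of 9 higher. Without the 4 arrays their medians were -0.23 and -0.25, with 3 and 2 of 9 higher. The part of these markers in the LILR differences was not tested. Under ATRA the largest LILR differences were those of LILRA5, -0.78 (95% interval -1.24 to -0.32, adjusted p = 0.461) at 48 h and -0.89 (95% interval -1.34 to -0.43, adjusted p = 0.139) at 72 h, after 0.1 (95% interval -0.35 to 0.56, adjusted p = 1) in untreated cells. The 72 h difference of LILRA5 passed only when wild-type 72 h replicate 2 was left out (-1.09, adjusted p = 0.0432). LILRA2 differed by -0.65 (95% interval -1.13 to -0.17, adjusted p = 0.67) at 48 h and LILRB2 by -0.5 (95% interval -0.9 to -0.1, adjusted p = 0.332) at 72 h. LILRA6 differed by -0.42 (95% interval -0.8 to -0.04, adjusted p = 0.793) at 48 h, without overlap, and by -0.09 when its dimmer probe set was used. LILRB1 ran the other way at 48 h, 0.44 (95% interval 0.05 to 0.82, adjusted p = 0.786), with overlapping arrays.

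The other receptor genes with an unadjusted p under 0.05 were CLEC2B, CLEC5A, CLEC4D and CLEC4A. CLEC2B was higher in knockout cells before treatment, with a difference of 0.8 (95% interval 0.44 to 1.17, adjusted p = 0.598), and its difference was 0.49 at 48 h and 0.26 at 72 h. CLEC5A stood at 6.19 ± 0.26 in untreated knockout and 6.85 ± 0.16 in untreated wild-type cells (SD, n = 3 each), a difference of -0.66 (95% interval -1.1 to -0.22, adjusted p = 1), without overlap, and differed by -0.48 (95% interval -0.92 to -0.04, adjusted p = 0.799) at 48 h. In untreated cells CLEC2B was called with array weights per group and in a fit of the compared groups alone (adjusted p = 0.000298 and 0.0267), and CLEC5A with array weights (adjusted p = 0.0102). CLEC4D differed by 0.74 (95% interval 0.42 to 1.06, adjusted p = 0.185) at 48 h, where every knockout array was above every wild-type array, and CLEC4A by -0.49 (95% interval -0.97 to -0.02, adjusted p = 0.822). The intervals reached -1.34 for LILRA5 at 72 h and 1.17 for CLEC2B before treatment, so a missed threshold does not show equal levels.

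**Figure D4:**
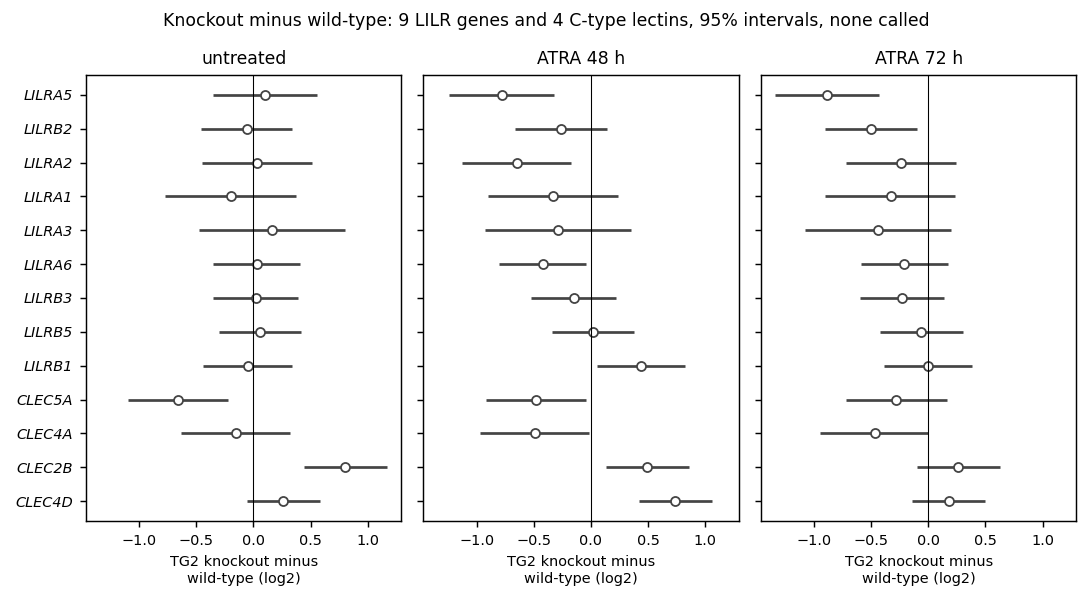
Knockout minus wild-type difference (log2, horizontal) with its 95% interval in untreated cells, at 48 h and at 72 h of ATRA (panels), for the 9 LILR genes and the 4 C-type lectins with an unadjusted p under 0.05 in at least 1 panel. None was called, and LILRA5 lies at -0.78 and -0.89 under ATRA.

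The difference of the ATRA response between genotypes was tested as an interaction. No gene of the 18417 was called at 48 h (0%) or at 72 h (0%), with 444 and 811 at an unadjusted p under 0.05, of which 3 and 2 were receptor genes. LILRA5 was among them at both times, with a response in knockout minus wild-type cells of -0.88 (95% interval -1.53 to -0.24, adjusted p = 1) at 48 h and -0.99 (95% interval -1.63 to -0.35, adjusted p = 1) at 72 h. Those of CLEC4D and LILRA2 at 48 h were 0.48 (95% interval 0.03 to 0.93, adjusted p = 1) and -0.68 (95% interval -1.36 to 0, adjusted p = 1), and that of CLEC2B at 72 h was -0.54 (95% interval -1.06 to -0.02, adjusted p = 1). Between 48 and 72 h of ATRA no gene was called in knockout cells (0%) or in wild-type cells (0%), with 1180 and 893 genes at an unadjusted p under 0.05, of which 1 and 2 were receptor genes. These were CLEC6A in knockout cells (0.41 (95% interval 0 to 0.81, adjusted p = 0.607)) and CLEC4D and LILRA5 in wild-type cells (0.48 (95% interval 0.16 to 0.8, adjusted p = 0.616) and 0.49 (95% interval 0.03 to 0.95, adjusted p = 0.82)).

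The machinery around the receptors was read from lists chosen with earlier results of these data known. Over all genes 16.5% to 19.6% were called higher and 22.6% to 24.5% lower in the 4 ATRA comparisons. The counts of these lists and of the cell type markers below stand beside those shares and were not tested against them. Of 17 measured signalling partners, 5 were called higher and 5 lower in knockout cells at 48 h, and 7 and 4 at 72 h. In wild-type cells 8 were called higher and 4 lower at 48 h, and 8 and 3 at 72 h. In wild-type cells at 72 h the Src-family kinase FGR rose by 4.34 (SE 0.18, adjusted p = 8.04e-11), the ITAM adaptor FCER1G by 1.95 (SE 0.43, adjusted p = 0.00181) and the Src-inhibiting kinase CSK by 1.15 (SE 0.08, adjusted p = 3.11e-08). MALT1, the protease of the CARD9 pathway, fell by 1.3 (SE 0.17, adjusted p = 1.44e-05). Of 11 measured ligands 4 rose and 2 fell in knockout cells at 72 h and 4 rose and 1 fell in wild-type cells. In wild-type cells B2M, the light chain of HLA class I, rose by 1.1, BST2, a ligand of LILRA4, by 0.96 and APOE, a ligand of LILRB4, by 0.47, while SAP130 fell by 1.11 (adjusted p = 4.51e-06, 0.000382, 0.00918 and 6.94e-07). SAP130, the nuclear ligand of CLEC4E, and CLEC4E were both lower in wild-type cells at 72 h, SAP130 with a call and CLEC4E without one.

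Of 17 measured C-type lectins outside the CLEC symbols 5 rose and 2 fell in both genotypes at 72 h. P-selectin (SELP) rose by 2.24 and CD93 by 1.3 in wild-type cells, and the collagen receptor MRC2 and the asialoglycoprotein receptor subunit ASGR2 fell by 1.97 and 1.77 (adjusted p = 1.47e-08, 0.000693, 2.05e-08 and 4.69e-07). SELP was also the 1 gene of these partner lists called between genotypes at 72 h, with a mean of 6.32 in knockout and 7.26 in wild-type cells (adjusted p = 0.0165). Of 12 other immunoglobulin-like receptors 5 rose and 2 fell in knockout cells and 5 rose and 0 fell in wild-type cells at 72 h, where the inhibitory CD300A rose by 2.68, SIRPA by 1.51, CD300LF by 0.98 and KIR3DX1 by 0.66 (adjusted p = 1.46e-08, 8.52e-05, 0.00103 and 0.0143).

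Markers of cell types moved beside the receptors. Neutrophil maturation genes rose in 7 of 8 cases in both genotypes at 72 h, with a median of 1.34 in knockout and 2.15 in wild-type cells. Of 9 promyelocyte and granulocyte genes 2 rose and 5 fell in knockout cells and 4 rose and 5 fell in wild-type cells. Of 9 monocyte and macrophage genes 3 rose in knockout and 6 in wild-type cells. Of 9 dendritic cell genes 1 rose in knockout and 2 in wild-type cells. Of 9 plasmacytoid dendritic cell genes 0 rose in either genotype and 2 fell in wild-type cells. Of 9 lymphocyte and natural killer genes 2 rose and 3 fell in knockout cells and 3 rose and 3 fell in wild-type cells. Of 6 platelet genes 2 rose in knockout and 3 in wild-type cells. The promyelocyte peroxidase MPO lay at 12.22 in knockout and 12.22 in wild-type cells at 72 h, and the monocyte marker CD14 at 6.24 and 6.43. Other genes of these lists stood further apart, such as MS4A3 at 7.74 and 6.85 and CSF1R at 6.22 and 7.18. In knockout cells 5 of 9 promyelocyte and granulocyte genes and 1 of 9 monocyte and macrophage genes were higher, none with a call. Under ATRA in wild-type cells MPO changed by -0.47, LYZ by -3.67 and MS4A3 by -3.78. Arrays give no true zero, and the part of these cell types in the receptor changes was not tested.

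Without the 4 arrays that stood apart on the first principal component the counts of receptor genes called higher were 15 in knockout cells at 48 h, 13 in knockout cells at 72 h, 20 in wild-type cells at 48 h and 18 in wild-type cells at 72 h. The shares of all genes called higher in that fit were 18.1%, 21.4%, 20.7% and 23.4% in the same order. The counts called lower were 3 and 2 in knockout cells and 4 and 2 in wild-type cells at 48 and 72 h, beside 27.5% and 26.6% of all genes in knockout cells and 26.4% and 27.2% in wild-type cells. No receptor gene was called between genotypes.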

How the data were processed

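The deposited table holds 1 value for each of 33297 probe sets on 18 arrays; its values, from 0.73 to 13.56, were taken as log2 signal from their range, since the scale is not stated, and how the authors normalized them is not given in the sources used here. Per the labels' protocols, biotinylated cDNA was made from total RNA. The annotation named 1 gene for 19460 probe sets, several for 1754 and none for 12083, leaving 18417 genes. limma 3.58.1 in R 4.3.3 fitted 1 mean per group over all 18 arrays with a trended variance, and p-values were adjusted by Benjamini-Hochberg over all probe sets within each comparison (threshold 0.05, two-sided). The number of arrays limits the precision. The members and gene lists were chosen with earlier results of these data known. Single-array values are given for the 16 called members with the largest absolute ATRA change, and up to 4 called genes per partner list are named. Lists of receptor signalling partners, ligands, other C-type lectins, other immunoglobulin-like receptors and cell type markers were read. Replicate numbers counted as pairs where every correlation of same-numbered deviations was over 0.1. This held for knockout against wild-type arrays at 72 h alone, with 0.103, 0.16 and 0.138. The fit of 1 mean per group has no term for these pairs. The correlations were 0.196, 0.194 and 0.089 between genotypes at 48 h and 0.095, 0.137 and 0.186 between wild-type 48 h and 72 h arrays. Each of these missed the cut-off by a single value, so pairing there is left undecided. Alternatives changed the normalization, centring, probe-set filter, probe set per gene, variance model, arrays in the fit and replicate block, and left out each array in turn.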

Additional observations from a re-analysis of the deposited data

How the results depend on the processing

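Over the alternatives run, 37 of the 71 called changes of single receptor genes under ATRA kept their call in every one and 0 reversed direction. Changing the variance model, the probe-set filter or the groups in the fit leaves the size of a change as it was. No reversal could arise under those alternatives. The alternative without the 4 arrays standing apart keeps 1 knockout array at 48 h, and its calls there entered the 37. Restricting the test to brighter probe sets left 14 of the 40 genes, so fewer could be called: 9 higher and 1 lower in knockout cells at 48 h, 6 and 1 in knockout cells at 72 h, 9 and 1 in wild-type cells at 48 h, and 5 and 1 in wild-type cells at 72 h. In wild-type cells at 72 h, 4 genes fell under quantile normalization and 4 with array weights per group, against 2. In knockout cells at 72 h, 2 fell, against 4, when the 4 arrays standing apart were left out together, an alternative chosen after seeing the data. Between genotypes in untreated cells array weights called 2 genes (CLEC2B and CLEC5A) and the fit of the compared groups alone 1 (CLEC2B), against 0. Leaving out single arrays gave 6 to 15 higher in knockout cells at 48 h (6 without untreated replicate 1), beside 12% to 18% of all genes. In knockout cells at 72 h it gave 8 to 11 higher and 2 to 3 lower, beside 12.3% to 18% and 19.6% to 23.5%. In wild-type cells at 48 h it gave 8 to 18 higher (8 without 48 h replicate 3), beside 11.2% to 17.9%. The falls in wild-type cells at 72 h came to 2 to 4, beside 21% to 22.6%. Between genotypes at 72 h it gave 0 to 1 (LILRA5). With the replicate number as a block 15 rose and 3 fell in knockout cells at 48 h, 14 and 4 in knockout cells at 72 h, 14 and 4 in wild-type cells at 48 h, 14 and 3 in wild-type cells at 72 h, and 0 differed between genotypes. This block is shared by all 6 groups, so it does not model pairs that hold between the genotypes at 72 h alone. What that pairing does to the 72 h comparison was not tested. The shares of all genes called were not taken for the brighter probe sets, the array weights, the fit of the compared groups alone or the replicate block. They were also not taken for comparisons between genotypes with single arrays left out. Counts under those settings therefore cannot be set against the genes at large. The causes of these shifts were not tested. No measure of signal over background was used, so dim genes carry the least certain calls.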

Other observations

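A few probe sets are annotated to several genes of these families and were left out of the counts. Of 3 probe sets shared by CLEC18A, CLEC18B and CLEC18C, secreted lectins of nearly the same sequence, none was called, and their changes at 72 h of ATRA were 0.09, 0.1 and 0.15 in knockout cells and 0.23, 0.35 and 0.37 in wild-type cells. A probe set shared by CD209 and CLEC4M, neighbouring lectins that bind high-mannose glycans, changed by 0.5 (SE 0.24, adjusted p = 0.103 by limma) in knockout cells and by 0.18 (SE 0.24, adjusted p = 0.562) in wild-type cells at 72 h.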
